A study of Mus musculus with 14 samples.

Results

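The 33 genes described here encode the core of the presynaptic release apparatus: the SNARE proteins, synaptotagmins, synapsins, vesicle membrane proteins, complexins, active zone scaffolds, priming factors, Rab3 proteins with their effectors, and vesicular glutamate transporters. They were listed by name and function, with earlier results of these data known, and were found by matching the Ensembl gene IDs of the count tables to gene symbols. All 33 were found among the 55359 genes of the tables, and all 33 passed the filter on low counts that left 20330 genes for testing. Their lowest count in any library was 39, for Slc17a8.

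At a synapse, transmitter is packed into vesicles by a vesicular transporter, and the vesicles are held by synapsins and gathered at the active zone by large scaffold proteins. Unc13 proteins prime them for fusion, the vesicle SNARE pairs with the SNAREs of the plasma membrane, and a synaptotagmin senses the calcium that triggers fusion. The messenger RNA of these proteins is made mainly in the cell body, so tissue of the superior colliculus reports mostly on neurons whose cell bodies lie there, while the retinal axons that end in it come from cell bodies in the eye.

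The superior colliculus is a midbrain structure whose superficial layers receive input from the retina and whose deep layers receive input of other senses. RNA of both layers was sequenced after poly-A selection in ICR/CD-1 mouse pups at postnatal day 6, and every sample pooled the microdissected tissue of 3 brains. Pups had received an injection of 0.3 to 0.5 µL into the eyes on postnatal day 0 or 1, either of saline or of 50 mM carbenoxolone (cbx), a blocker of gap junctions used per the treatment protocol to abolish retinal waves, the spontaneous activity of the developing retina. There were 3 saline and 4 cbx pools, each with a superficial and a deep library, which gave 4 groups and 14 libraries. Nothing in the labels says whether pools came from separate litters, so p-values measure the spread between pools only. No RNA of the retina was measured in these libraries, so they hold no check of the drug's effect in the eye.

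Total counts were 32004952 to 48776827 per library, and the 33 genes together took 0.752% to 0.889% of them. Levels are given as CPM, counts scaled by TMM factors and library totals. The sex-linked genes set 2 pools apart: Xist was at 0.572 (deep) and 1.94 CPM (superficial) in saline pool 1 but 187 CPM or more elsewhere, and Ddx3y had no count in cbx pool 4. Meningeal genes separated the layers, with 12 of 12 higher in superficial libraries of either treatment (summed level 731 to 1900 CPM against 53.3 to 98.8). Genes of dividing cells were higher superficially in 8 of 8 under both treatments, and endothelial and mural genes in 6 of 9 in saline (mean sum 548 against 355 CPM) and 7 of 9 in cbx pools. Microglial genes were lower superficially in 8 of 9 in saline pools (249 against 403 CPM) and 4 of 9 in cbx pools, where 1 was higher. Genes of the oligodendrocyte lineage were lower in 5 of 9 in saline (776 against 1192 CPM), where 1 was higher, and in 7 of 9 in cbx pools. Astrocyte genes were higher superficially in 2 of 7 in saline (2881 against 2057 CPM) and 4 of 7 in cbx pools, with 1 lower in each. Red blood cell genes were higher in 0 of 7 in saline and 6 of 7 in cbx pools. The part of these cells in the layer differences below was not tested. Of 6 genes listed as markers of superficial collicular neurons, Rorb and Tac1 were higher in the superficial libraries of both treatments, while Etv1, Cbln2, Ntsr1 and Npnt were lower. Among 8 cerebellar genes, Gabra6 and Atoh1 had no count in any library, while Barhl1, Pcp2, Pax6 and Calb1 were higher superficially under both treatments and Zic1 in cbx pools.

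More of the presynaptic genes were lower than higher in the superficial layer when libraries were scaled by TMM. In saline pools, 14 of the 33 were lower and 2 were higher in the superficial than in the deep layer, where 18.4% of all genes tested passed, 8.73% lower and 9.67% higher (edgeR quasi-likelihood test, Benjamini-Hochberg adjusted p under 0.05, fit to all 14 libraries). In cbx pools, 17 were lower and 3 were higher, where 32.2% of all genes passed, 14.1% lower and 18.1% higher. Among the 6491 genes at least as abundant as the lowest of the 33 apart from Slc17a7 and Slc17a8, the share past the threshold was 25.1% in saline and 42.4% in cbx pools, beside 48.5% and 60.6% of the 33. In pools of both treatments the genes with the largest falls were Syt2, Vamp1, Slc17a6, Syn2, Unc13c and Doc2b, and Syt1 alone was called higher in both. The median log2 difference of the 33 was -0.27 in saline and -0.33 in cbx pools, beside 0.04 and 0.02 over all genes, and 26 of 33 genes were below 0 in each. In these bulk samples, fewer cells of a type and less RNA per cell cannot be told apart.

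Most calls were shared by the treatments. Altogether 14 genes were lower and 1, Syt1, was higher in both comparisons, 12 passed in neither, and none passed in opposite directions. Sv2c passed in saline pools alone, and Syt4, Sv2b, Bsn, Unc13a and Rab3c passed in cbx pools alone, a difference between treatments that did not itself pass for any of them. With each pool as a replicate block, which uses the pairing of the layers, Sv2b, Bsn, Unc13a, Rab3c and Rab3a also passed in saline pools, and Sv2c, Syt7, Cplx1, Pclo, Rims2 and Rab3a in cbx pools, so that among the genes of the preceding sentence Syt4 alone still passed under a single treatment. Taking each pool by itself, 20 of the 33 genes were lower and 4 (Syt1, Syt4, Sv2c and Rab3c) were higher superficially in all 7 pools, where 14.5% of all genes were lower and 17.8% higher in all 7. Every superficial saline library was below every deep one for 17 of the 33 and above for 3 (16.5% and 20.2% of all genes), and in cbx pools this held for 16 and 2 (13% and 16.7%).

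How far this applies depends on what the libraries are scaled to. The summed level of 12 genes found in neurons of all kinds, such as Rbfox3, Map2 and Stmn3, was itself lower in the superficial layer, at 6095 CPM ± 60.1 (SD, n = 3) against 7433 ± 105 (SD, n = 3) in saline pools and 5958 ± 102 (SD, n = 4) against 7466 ± 184 (SD, n = 4) in cbx pools. That is a log2 difference of -0.29 in saline and -0.33 in cbx pools, with 17 and 16 of the 33 presynaptic genes above it. When the libraries were scaled to these 12 genes in place of TMM, a choice made after seeing the data, the median of all genes moved from 0.04 to 0.33 in saline and from 0.02 to 0.34 in cbx pools. Under that scaling 6 presynaptic genes were lower and 8 higher in saline pools, and 7 were lower and 9 higher in cbx pools. The 6 that stayed lower in both were Syt2, Vamp1, Slc17a6, Syn2, Doc2b and Unc13c, all among the 14 above, and 6 genes (Syt1, Snap25, Syt4, Syt7, Sv2c and Rab3c) were higher in both. The sign turned from lower to higher for Cplx2, Vamp2, Syt7, Cplx1, Rims2 and Rab3a in both treatments, for Sv2b, Pclo, Rph3a and Slc17a8 in saline pools and for Syt11, Bsn and Unc13b in cbx pools. Of these, Cplx2 in both treatments and Syt11 and Bsn in cbx pools had been called lower with TMM.

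**Figure D1:**
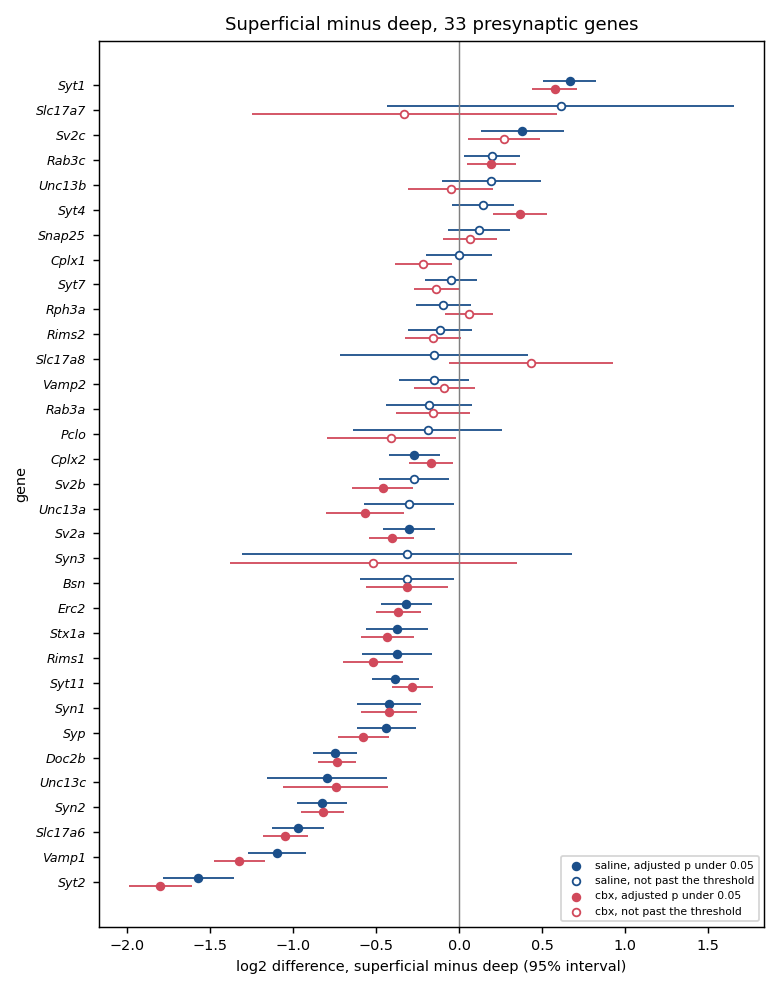
Log2 difference of each of the 33 genes between superficial and deep libraries (superficial minus deep), in saline pools (blue) and cbx pools (red), with 95% intervals from edgeR, and filled points for adjusted p under 0.05. Syt2, Vamp1 and Slc17a6 lie farthest to the left and Syt1 farthest to the right among the filled points of either treatment; scaled to 12 pan-neuronal genes, 6 genes remain lower in both treatments.

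Syt2 and Syt1 are the calcium sensors of fast release, and they went opposite ways. In superficial libraries Syt2 stood at 39.6, 33.3 and 40.1 CPM in saline pools and at 26.3, 34.6, 36.2 and 31.0 CPM in cbx pools. In deep libraries it stood at 118, 110 and 108 CPM in saline pools and at 118, 116, 113 and 99.7 CPM in cbx pools. Every superficial library was below every deep one, by a wide margin. The log2 difference was -1.57 (SE 0.103, adjusted p = 1.66e-09) in saline pools, which is 0.337 times the deep level, and -1.80 (SE 0.0903, adjusted p = 1.64e-11) in cbx pools.

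Syt1 was the reverse. Its superficial level was 698, 614 and 629 CPM in saline pools and 542, 563, 546 and 556 CPM in cbx pools. Its deep level was 450, 398 and 377 CPM in saline pools and 392, 346, 378 and 366 CPM in cbx pools. No superficial library was as low as the highest deep library. The log2 difference was 0.66 (SE 0.0759, adjusted p = 2.57e-06) in saline and 0.57 (SE 0.0657, adjusted p = 1.18e-06) in cbx pools. Counted per kilobase of exon, Syt2 made up 5.98% ± 0.474 (SD, n = 3) of the sum of Syt1 and Syt2 in superficial saline libraries and 23.1% ± 0.778 (SD, n = 3) in deep ones. In cbx pools this share was 5.95% ± 0.743 (SD, n = 4) and 24.8% ± 1.60 (SD, n = 4), so the layers did not overlap in it.

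Vamp1, a vesicle SNARE, was lower superficially, while for its close relative Vamp2 the difference did not pass. Superficial Vamp1 was 72.1, 81.7 and 83.8 CPM in saline pools and 62.1, 71.1, 68.2 and 59.7 CPM in cbx pools. Deep Vamp1 was 161, 175 and 172 CPM in saline pools and 177, 170, 156 and 149 CPM in cbx pools. The layers did not overlap in either treatment. The log2 difference was -1.09 (SE 0.0835, adjusted p = 1.23e-08) in saline and -1.32 (SE 0.0728, adjusted p = 6.01e-11) in cbx pools. Vamp2, the main vesicle SNARE of forebrain synapses, stood at 595, 613 and 708 CPM in superficial and 689, 683 and 760 CPM in deep saline libraries. In cbx pools it stood at 761, 631, 573 and 582 CPM superficially and 750, 633, 638 and 691 CPM in the deep layer. These ranges overlapped, and the log2 difference of -0.15 (95% interval -0.37 to 0.06) in saline and -0.09 (-0.27 to 0.09) in cbx pools did not pass. Scaled to the pan-neuronal genes, Vamp2 turned higher superficially in cbx pools, at 0.23 (adjusted p = 0.0301). The share of Vamp1 in the sum of Vamp1 and Vamp2 per kilobase of exon was 4.45% and 3.75% in superficial saline and cbx libraries, and 8.20% and 8.30% in deep ones.

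Slc17a6 encodes the glutamate transporter of vesicles in most subcortical excitatory neurons. It stood at 195, 186 and 221 CPM in superficial saline libraries and at 193, 204, 209 and 190 CPM in superficial cbx libraries. Deep levels were 408, 395 and 376 CPM in saline and 445, 394, 402 and 406 CPM in cbx pools. The deep libraries were all well above the superficial ones, and the log2 difference was -0.97 (SE 0.0753, adjusted p = 1.53e-08) in saline and -1.05 (SE 0.0653, adjusted p = 3.01e-10) in cbx pools. Beside it, the summed level of 5 genes of GABA neurons went the other way, at 1011 to 1056 CPM superficially against 652 to 710 in the deep layer of saline pools, and 3 of the 5 (Gad1, Tal1 and Gata3) were higher superficially in both treatments, while Gad2 was lower in cbx pools. What part a different mix of excitatory and GABA neurons has in the Slc17a6 difference was not tested.

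Syn2 encodes a synapsin, which tethers vesicles to each other. Its superficial level was 123, 123 and 134 CPM in saline and 131, 134, 124 and 121 CPM in cbx pools. In the deep layer it was 217, 232 and 225 CPM in saline and 249, 224, 215 and 213 CPM in cbx pools. The layers were far apart and spread little within themselves, with a log2 difference of -0.83 (SE 0.0717, adjusted p = 6.84e-08) and -0.82 (SE 0.0620, adjusted p = 4.59e-09). Syn1, the most abundant synapsin, was lower superficially by less, at -0.42 in saline (adjusted p = 0.00264) and -0.43 in cbx pools (adjusted p = 0.000386), neither of which passed with pan-neuronal scaling. Syn3 did not pass in either, and its interval in saline pools ran from -1.31 to 0.68. Without the low-count filter Syn3 was called lower in both.

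Unc13c, one of the priming factors, was at 79.9, 68.2 and 65.0 CPM in superficial and 139, 122 and 109 CPM in deep saline libraries. In cbx pools it was at 43.9, 59.997, 75.9 and 71.2 CPM superficially and at 104, 97.0, 121 and 98.8 CPM in the deep layer. The ranges did not overlap, although superficial cbx libraries spread widely. The log2 difference was -0.80 (SE 0.168, adjusted p = 0.00383) in saline and -0.74 (SE 0.145, adjusted p = 0.00132) in cbx pools. Of the other priming factors, Unc13a was lower superficially in cbx pools at -0.57 (adjusted p = 0.000806) but was not past the threshold in saline pools at -0.30 (adjusted p = 0.123), and Unc13b passed in neither.

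Doc2b, a calcium-binding protein linked to spontaneous and delayed release, had little spread within any group. It stood at 76.6, 74.6 and 78.4 CPM in superficial and at 127, 131 and 128 CPM in deep saline libraries. In cbx pools it stood at 83.2, 87.6, 85.7 and 85.4 CPM superficially and at 154, 141, 140 and 135 CPM in the deep layer. All 7 superficial libraries were below all 7 deep ones, at a log2 difference of -0.75 (SE 0.0628, adjusted p = 4.25e-08) in saline and -0.74 (SE 0.0542, adjusted p = 3.34e-09) in cbx pools.

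**Figure D2:**
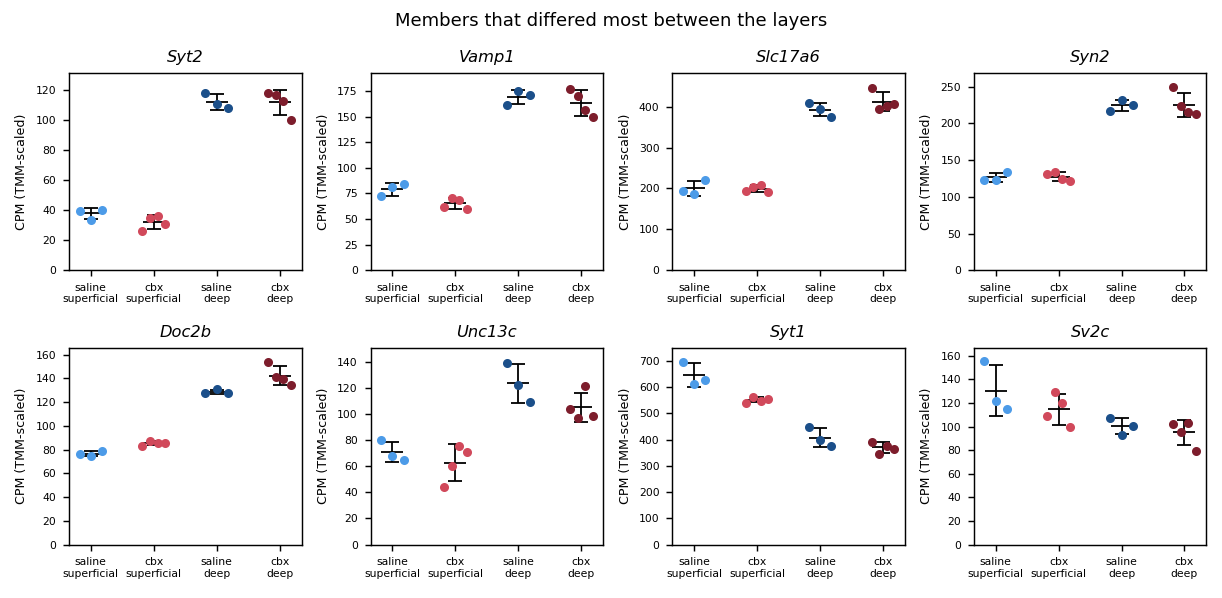
TMM-scaled CPM (linear axes from 0) of 8 presynaptic genes in each library, by layer and treatment; points are libraries, horizontal lines the mean and bars the SD of 3 saline or 4 cbx libraries. For Syt2, Vamp1, Slc17a6, Syn2, Doc2b and Unc13c all superficial libraries lie below all deep ones, and for Syt1 all lie above.

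The remaining genes differed less between layers. Of the plasma membrane SNAREs, Stx1a was lower superficially in both treatments (-0.37 and -0.43), while Snap25 at 0.12 and 0.06 was not past the threshold and turned significantly higher only with pan-neuronal scaling (0.40 and 0.39). Among vesicle membrane proteins, Syp was lower at -0.44 and -0.58 and Sv2a at -0.30 and -0.41, while Sv2c was higher in saline pools at 0.38 (adjusted p = 0.0328). That call for Sv2c was lost without superficial saline replicate 1 (0.24, adjusted p = 0.193), which at 155 CPM was the highest, and likewise without deep saline replicate 2 or 3. Among active zone scaffolds, Rims1 (-0.38 and -0.52) and Erc2 (-0.32 and -0.37) were lower in both treatments, and Bsn at -0.31 passed in cbx pools only (adjusted p = 0.0482), a call kept in 10 of 19 alternatives. Rims2 and Pclo passed in neither in the edgeR fit by group means. In cbx pools both were lower with the replicate block. Pclo was also lower there without the low-count filter and once library trends with length and GC content were removed. Cplx2, a complexin that clamps and assists the SNARE complex, was lower at -0.27 (adjusted p = 0.0119) and -0.17 (adjusted p = 0.0489), and the call in cbx pools was kept in 9 of 19 alternatives. Its relative Cplx1 was at 0.00 and -0.22 and did not pass in the fit by group means (adjusted p = 0.0517 in cbx pools). It was called lower in cbx pools with the block, in DESeq2 and with genes of at least 1 CPM in 3 libraries, among others. With pan-neuronal scaling it was higher in saline pools. Rab3a did not pass in the fit by group means. It was lower in both treatments with the block, and in cbx pools with the length and GC trends removed. Rab3c was at 0.20 and 0.19 and passed in cbx pools only (adjusted p = 0.0382), a call kept in 8 of 19 alternatives. Syt11, which does not serve as a fast calcium sensor, was lower at -0.38 and -0.28. With pan-neuronal scaling Stx1a, Sv2a, Rims1, Erc2, Cplx2 and Syt11 passed in neither treatment, and Syp passed as lower in cbx pools only.

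Promoter sequences of the genes at both ends of this range are shown to let Syt2 and Vamp1, low superficially, be read beside Syt1, high superficially. The windows hold the 250 bases before each transcription start listed by RefSeq (GRCm38.p6), written 5′ to 3′ along the gene, with each GC box (GGGCGG on either strand) in capitals.
Syt2, chr1:134646362-134646611, plus strand: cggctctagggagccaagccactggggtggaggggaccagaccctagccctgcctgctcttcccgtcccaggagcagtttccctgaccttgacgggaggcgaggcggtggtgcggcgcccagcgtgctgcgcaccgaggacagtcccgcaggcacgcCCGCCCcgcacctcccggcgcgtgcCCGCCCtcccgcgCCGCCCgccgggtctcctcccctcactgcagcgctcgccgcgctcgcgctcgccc
Syt2, chr1:134709050-134709299, plus strand: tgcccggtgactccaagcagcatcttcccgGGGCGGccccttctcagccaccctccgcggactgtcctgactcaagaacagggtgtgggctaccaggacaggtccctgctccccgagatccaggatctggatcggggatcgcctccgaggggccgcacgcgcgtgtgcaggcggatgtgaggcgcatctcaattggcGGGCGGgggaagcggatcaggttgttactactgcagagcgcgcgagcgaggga
Vamp1, chr6:125215331-125215580, plus strand: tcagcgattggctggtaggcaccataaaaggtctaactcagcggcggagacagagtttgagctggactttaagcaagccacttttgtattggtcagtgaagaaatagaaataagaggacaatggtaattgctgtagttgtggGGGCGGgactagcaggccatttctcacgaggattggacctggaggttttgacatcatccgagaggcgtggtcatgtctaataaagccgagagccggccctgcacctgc
Syt1, chr10:109010976-109011225, minus strand: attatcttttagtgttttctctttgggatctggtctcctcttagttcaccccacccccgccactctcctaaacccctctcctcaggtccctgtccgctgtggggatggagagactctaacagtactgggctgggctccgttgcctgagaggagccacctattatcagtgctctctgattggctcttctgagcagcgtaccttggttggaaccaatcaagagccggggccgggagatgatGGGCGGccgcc
Syt1, chr10:109009112-109009361, minus strand: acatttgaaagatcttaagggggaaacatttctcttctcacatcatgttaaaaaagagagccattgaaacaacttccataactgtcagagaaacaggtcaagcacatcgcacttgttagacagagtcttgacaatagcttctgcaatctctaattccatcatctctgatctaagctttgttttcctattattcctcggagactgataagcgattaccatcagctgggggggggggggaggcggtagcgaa

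Syt2 had 3 GC boxes before the first of these starts and 2 before the second, Vamp1 had 1, and Syt1 had 1 before one start and none before the other. Starts of 26 of the 33 genes were listed, in 37 windows. A GC box lay in 21 of the 37 windows (56.8%), against 32.7% of the 32851 windows of all genes. The cAMP response element TGACGTCA lay in 1 window, that of Syn1 (2.7% against 1.55%), and the TATA box TATAAA in 2, both of Sv2b (5.41% against 12.4%). These counts on both strands describe letters only, and windows of the same gene can overlap in content.

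Fewer of the 33 genes passed between treatments than between layers. In the superficial layer 2 of them, Syt7 and Vamp1, were lower after cbx and none was higher, where 4.33% of all genes passed, 1.65% lower and 2.68% higher. The median log2 difference (cbx minus saline) of the 33 was -0.15, beside 0.01 over all genes, and 28 of 33 (84.8%) were below 0 against 48.5% of all genes. Of the 6491 genes above the abundance floor given before, a set with no upper limit, 5.15% passed, beside 6.06% of the 33. Among these 6491 genes 54.2% were below 0, with a median of -0.01. Leaving out single libraries lowered the number of all genes called higher from 545 to as few as 84 and moved the number called lower from 335 to between 56 and 414. Of the 33, 9 had an unadjusted p under 0.05. All 4 cbx libraries lay below all 3 saline libraries for 6 genes (Syt7, Vamp1, Syt1, Syp, Sv2a and Erc2) and above them for 1, Doc2b, where 8.29% and 8.96% of all genes did so.

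Syt7 encodes a slow calcium sensor linked to delayed release and to facilitation. It stood at 364, 331 and 335 CPM in the saline and at 260, 287, 302 and 301 CPM in the cbx libraries of the superficial layer. No library of either group reached the other, and the log2 difference was -0.26 (SE 0.0696, adjusted p = 0.0435). Vamp1 differed by -0.28 (SE 0.0776, adjusted p = 0.0469), from the superficial values given above, with the highest cbx library at 71.1 and the lowest saline library at 72.1 CPM. Vamp2 differed by 0.00 (95% interval -0.20 to 0.19).

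Both calls lie close to the threshold. Each kept it in 8 of 18 alternative settings, with adjusted p between 0.00864 and 0.198 for Syt7 and between 0.0191 and 0.223 for Vamp1, and a log2 difference below 0 in all 18. Syt7 lost the call without saline replicate 1, 2 or 3 or cbx replicate 1 or 2 (adjusted p up to 0.171), and Vamp1 without saline replicate 2 or 3 or cbx replicate 1 or 4 (up to 0.185). With libraries of the superficial layer alone in the fit, or without saline pool 1 and cbx pool 4, neither passed. Nor did either with the replicate number as a block, although saline and cbx pools share only that number. Neither passed with pan-neuronal scaling (adjusted p = 0.103 and 0.0754).

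Other genes in the superficial layer had values of a similar size that did not pass in edgeR. Syt1 differed by -0.23 (adjusted p = 0.0668), Syp by -0.25 (0.0735), Sv2a by -0.21 (0.0832) and Erc2 by -0.21 (0.0922). Syt1, Syp and Sv2a did pass in DESeq2, and in edgeR with genes of at least 1 CPM in 3 libraries only. By role, the active zone scaffolds ranged from -0.25 to -0.12, the vesicle membrane proteins from -0.25 to -0.19 and the synaptotagmins from -0.26 to -0.02. The plasma membrane SNAREs lay between -0.04 and -0.02. For 29 of the 33 genes the 95% interval of the difference excluded a change of 1.5-fold in either direction; the others were Syn3, Pclo, Slc17a7 and Slc17a8.

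Beside these values, genes of other cells moved with treatment in the superficial layer. Of 9 microglial genes 6 were higher after cbx (summed level 317 to 332 CPM against 241 to 262), and of 12 meningeal genes 5 were higher (961 to 1900 against 731 to 1093). Of 5 genes of GABA neurons Gad2 was lower, at -0.34 (adjusted p = 0.00774), and of the 12 pan-neuronal genes Elavl4 was higher, at 0.24 (adjusted p = 0.0478), with a summed log2 difference of -0.03. Relative to that sum, 23 of the 33 presynaptic genes were lower and 10 higher. Of 7 astrocyte genes Slc1a3 was lower, at -0.32 (adjusted p = 0.0358), and of 7 red blood cell genes Hbb-bt was higher, at 0.81 (adjusted p = 0.0353). The part of these cells in the presynaptic differences was not tested.

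**Figure D3:**
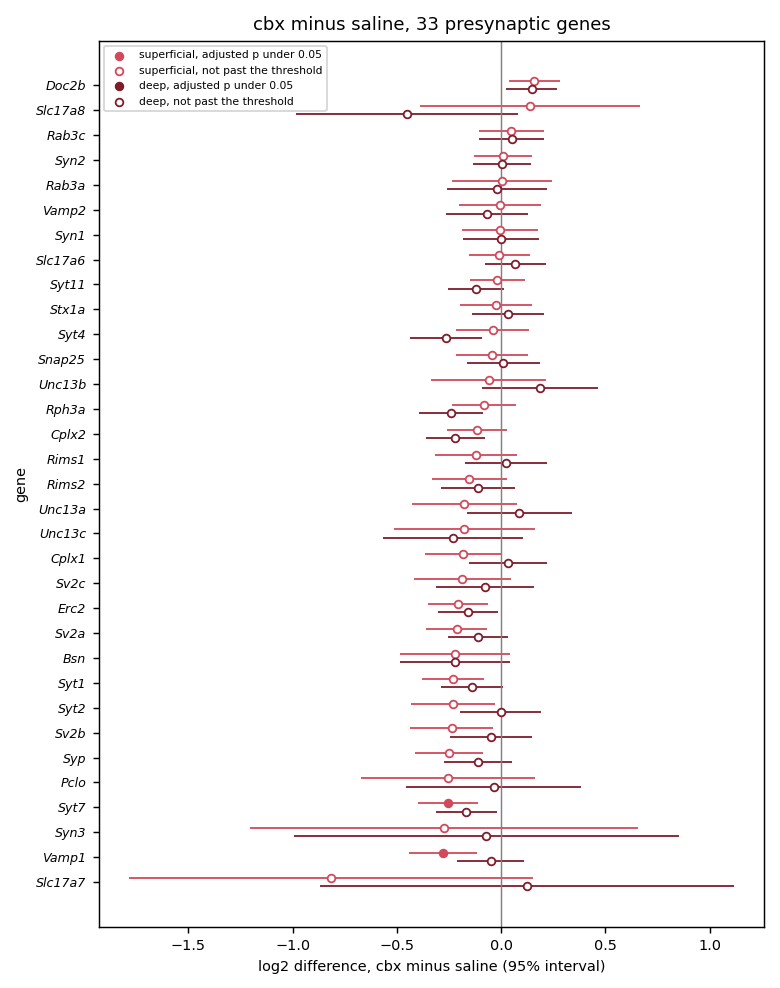
Log2 difference of each of the 33 genes between cbx and saline libraries (cbx minus saline), in the superficial (light red) and deep layer (dark red), with 95% intervals from edgeR, and filled points for adjusted p under 0.05. Only Syt7 and Vamp1 in the superficial layer are filled, and most superficial points lie left of 0.

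The cbx libraries of the superficial layer differed from each other with gene length. Cbx replicate 1 was low in genes with long exons, with Syn3 at 9.40, Pclo at 103, Bsn at 137 and Unc13a at 141 CPM, each the lowest of the 4 cbx libraries. It was the highest of the 4 in genes with short exons, with Vamp2 at 761 and Rab3a at 359 CPM. Across the 33 genes, its deviation from the mean of the other 3 libraries had a Spearman correlation of -0.787 with exon length, while cbx replicates 3 and 4 had 0.633 and 0.636. Such correlations ran from -0.717 to 0.739 in the 13 other libraries of all groups. They describe single libraries, and the genes of a library share its RNA and preparation. The deviations of a gene also cancel out over the libraries of a group, so opposite slopes within a group are not separate observations. Without cbx replicate 1 the median of the 33 genes was -0.09 and neither Syt7 (adjusted p = 0.0797) nor Vamp1 (0.0791) passed. Without saline replicate 1 the median was likewise -0.09. With the trends of each library with length and GC content removed, it was -0.10, and Syt7, Syp and Cplx1 passed.

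**Figure D4:**
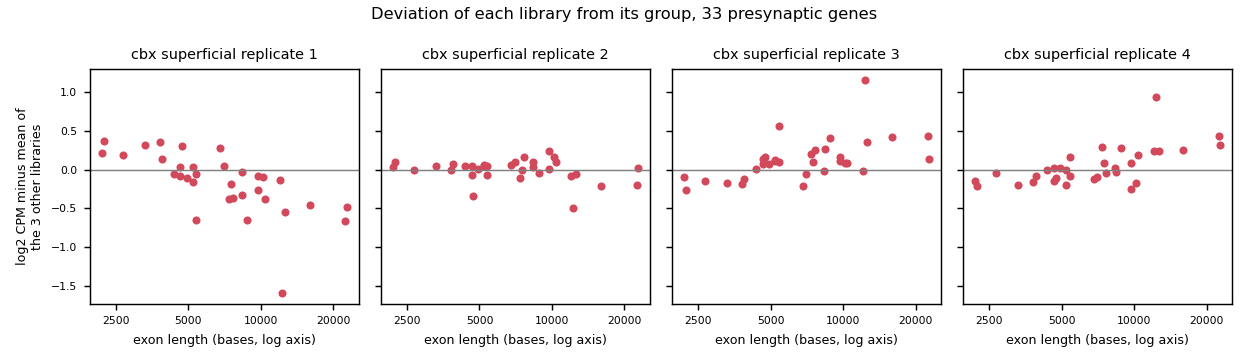
Deviation of each superficial cbx library from the mean of the other 3 (log2 CPM) against exon length (log axis), 1 point for each of the 33 genes. Replicate 1 slopes down with length and replicates 3 and 4 slope up, with replicate 2 nearly level. The deviations of a gene cancel out over the libraries, so these slopes are not independent of each other.

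In the deep layer none of the 33 genes passed, where 1.83% of all genes passed, 0.777% lower and 1.06% higher after cbx. Leaving out single libraries moved the number of all genes called there from 215 higher and 158 lower to 18 to 178 and 24 to 102. The median of the 33 was -0.05, beside 0.01 over all genes, and 22 of 33 (66.7%) were below 0. Both were close to the values of the 6491 genes above the abundance floor, with a median of -0.04 and 63.7% below 0. Without single libraries the median ran from -0.08 to -0.02. An unadjusted p under 0.05 was found for 6, and DESeq2 called 3, all lower: Rph3a, Cplx2 and Syt4, which also had the smallest p-values in edgeR. Cbx libraries lay below all saline libraries for 7 genes (Syt4, Syt7, Syt11, Cplx2, Erc2, Rph3a and Slc17a8) and above them for Doc2b, beside 8.05% and 7.96% of all genes.

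Rph3a, an effector that binds Rab3 on vesicles, stood at 293, 257 and 238 CPM in saline and at 225, 203, 233 and 230 CPM in cbx libraries of the deep layer. The groups came within a few CPM of each other, and the log2 difference was -0.24 (SE 0.0732, adjusted p = 0.101). Cplx2 stood at 867, 766 and 813 CPM in saline and at 700, 648, 708 and 745 CPM in cbx libraries, a difference of -0.22 (SE 0.0682, adjusted p = 0.105). Syt4 stood at 346, 294 and 296 CPM in saline and at 267, 237, 246 and 288 CPM in cbx libraries, at -0.27 (SE 0.0831, adjusted p = 0.108). In each of these genes deep saline replicate 1 was the highest library. Syt4 passed when length and GC trends were removed. For 30 of the 33 genes the 95% interval in the deep layer excluded 1.5-fold either way; the others were Syn3, Slc17a7 and Slc17a8.

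Doc2b was the single gene with all cbx above all saline libraries in both layers, at 0.16 superficially (SE 0.0588, adjusted p = 0.127) and 0.15 in the deep layer (SE 0.0583, adjusted p = 0.221). Neither passed the threshold. Syt7 (-0.26 superficially and -0.17 deep) and Erc2 (-0.21 and -0.16) had all cbx below all saline libraries in both layers. The share of all genes that did not overlap in both layers was not counted. Since both layers come from the same pools, the layers are not independent in this.

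Whether the layer difference depended on treatment was tested directly, as the layer difference in cbx pools minus that in saline pools. None of the 33 passed, and none of the 20330 genes did (0%) in edgeR, where 1699 had an unadjusted p under 0.05 and none of these was a presynaptic gene of the 33. Without a filter on low counts edgeR called 186 genes higher and 70 lower, with each pool as a replicate block it called 55 and 6, and DESeq2 called 47 and 13. Leaving out single libraries gave up to 14 higher, without superficial cbx replicate 2. None of the 33 was called in any of the 24 alternatives. The smallest p-values in edgeR belonged to Vamp1 (-0.23, SE 0.109, adjusted p = 0.598), Syt4 (0.22, SE 0.118, adjusted p = 0.632) and Syt2 (-0.23, SE 0.134, adjusted p = 0.668). Superficial Syt4 was 350, 313 and 370 CPM in saline and 359, 347, 314 and 320 CPM in cbx pools, and its deep values are given above. Its superficial libraries were above all deep ones in cbx pools (0.37, adjusted p = 0.00105), while the layers overlapped in saline pools (0.14, adjusted p = 0.321). For 27 of the 33 the interval excluded a 1.5-fold difference between treatments, with Syn3, Pclo, Unc13a, Unc13b, Slc17a7 and Slc17a8 as the exceptions.

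The genes spanned a wide range of levels. Divided by the length of the union of exons (GENCODE M21), Vamp2 was the highest in deep saline libraries at 187 CPM per kilobase, followed by Cplx2 at 165, Rab3a at 152, Syp at 129 and Sv2a at 119. Vamp2 and Cplx2 did not differ beyond their spread, nor did Cplx2 and Rab3a, while Rab3a lay above Syp and Syp above Sv2a. In the middle, Syt1 at 49.0 and Syt7 at 47.5 were alike within their spread. Near the bottom stood Unc13b at 3.33 and Syn3 at 3.10, but the exon union of Unc13b is 22746 bases long, so its value depends on which transcripts are made. Vamp2 was first in all 4 groups, and Slc17a7 and Slc17a8 were the last in each.

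**Figure D5:**
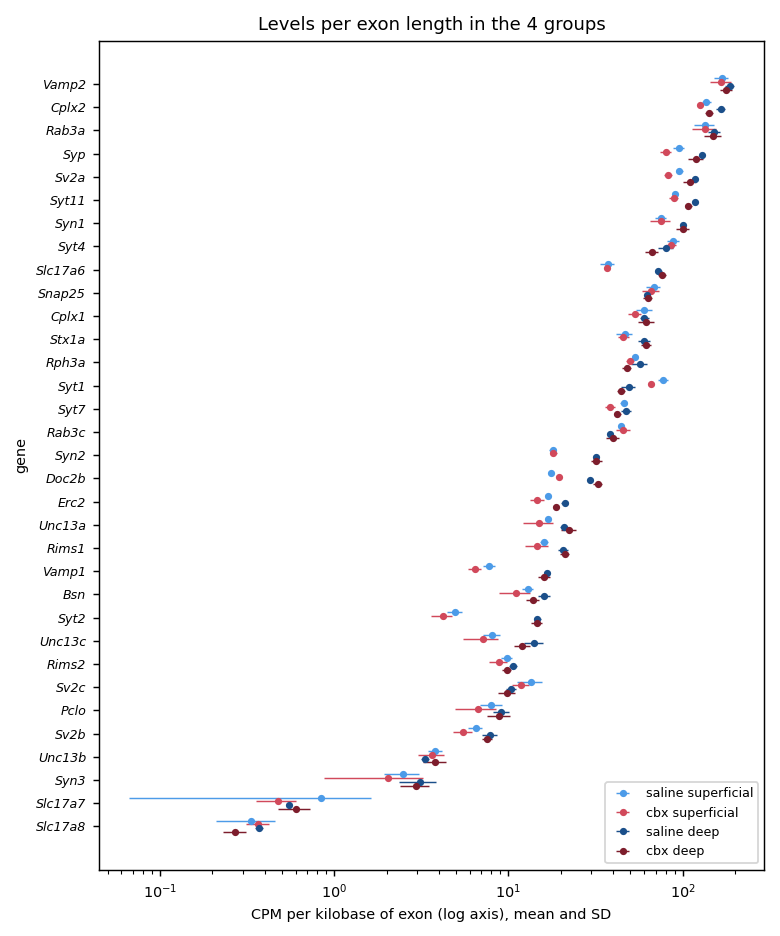
Mean level of each gene in CPM per kilobase of exon (log axis) with the SD as a bar, in the 4 groups (3 saline or 4 cbx libraries each). Vamp2, Cplx2 and Rab3a are at the top, Slc17a7 and Slc17a8 at the bottom, and Syt2 and Vamp1 show the widest gap between superficial and deep points.

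The vesicular glutamate transporters were very unequal. Slc17a6 was at 72.8 CPM per kilobase in deep saline libraries, while Slc17a7, the transporter of most cortical excitatory neurons, was at 0.553 and Slc17a8, found in scattered neuron types, was at 0.370. Slc17a7 made up 0.756% of the sum of Slc17a6 and Slc17a7 in deep saline and 1.27% in superficial cbx libraries. In superficial saline libraries it was at 1.66, 2.63 and 9.35 CPM, and replicate 3 was thus far above the rest, since the other 13 libraries of the series reached at most 3.93 CPM. The cortical genes Emx1 (1.08 CPM), Tbr1 (1.00) and Fezf2 (0.500) were also highest in that library, while Neurod6 at 2.24 CPM was not. Their part in its Slc17a7 level was not tested. No comparison of Slc17a7 passed in the edgeR fit by group means. Without the low-count filter it was called lower after cbx in the superficial layer, where the libraries of the treatments overlapped.

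The other paralog pairs are given as shares with no test. Per kilobase of exon, the share of Syn2 in Syn1 and Syn2 was 19.4% and 19.6% in superficial and 24.1% and 24.2% in deep libraries, saline first. Cplx1 in Cplx1 and Cplx2 took 30.5% and 29.6% superficially and 26.8% and 30.3% in the deep layer. The ranges of the layers overlapped in cbx pools. In saline pools they came close without overlap (28.71% to 31.88% superficially, 24.2% to 28.66% deep). Sv2c in Sv2a and Sv2c took 12.3% and 12.5% superficially, above 8.03% and 8.21% in the deep layer. Rims2 in Rims1 and Rims2 took 38.0% and 37.5% superficially and 33.9% and 31.8% in the deep layer, where the cbx libraries (30.8% to 32.9%) lay below the saline ones (33.5% to 34.3%). Unc13c in Unc13a and Unc13c took 32.1% and 32.1% superficially and 40.1% and 35.0% in the deep layer, where the cbx libraries (31.0% to 37.1%) lay below the saline ones (38.6% to 42.0%). In cbx pools the layers overlapped in this share. The treatments overlapped in both layers for all other pairs given here or above, and superficially for Rims2 and Unc13c. For single genes, 16% of all tested did not overlap between treatments in the deep layer.

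A further list of 70 presynaptic genes, of which 69 were tested, also held more genes lower than higher in the superficial layer. It held other SNAREs and fusion factors, other synaptotagmins and sensors, other active zone and Rab3 genes, other vesicle membrane genes, vesicle retrieval genes and other transmitter transporters. In saline pools 31 were lower and 5 higher superficially (median -0.20), beside 8.73% and 9.67% of all genes. In cbx pools 37 were lower and 6 higher (median -0.26), beside 14.1% and 18.1%. These counts used TMM scaling, and the list was not counted with pan-neuronal scaling. The pan-neuronal sum itself differed by -0.29 in saline and -0.33 in cbx pools, farther below 0 than the medians of the list. Cplx3, a complexin known from ribbon synapses and some other neurons, was the exception in size, with 13.1, 15.8 and 16.7 CPM in superficial and 1.49, 1.36 and 1.90 CPM in deep saline libraries. Its log2 difference was 3.25 in saline and 3.37 in cbx pools (adjusted p = 2.51e-10 and 9.94e-12). Syt9, another fast calcium sensor, was higher superficially at 0.73 and 0.52.

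Among those lower superficially in both treatments were Rab27b (-1.26 and -1.23), a GTPase of vesicle transport, and Syt17 (-1.14 and -1.26). Of 12 vesicle retrieval genes 5 were lower in each treatment, among them Dnm1 (-0.50 and -0.63), the neuronal dynamin, Pacsin1 (-0.43 and -0.64), a dynamin partner, and Ap2a2 (-0.38 and -0.31), a clathrin adaptor subunit. Of 5 other vesicular transporters, Slc18a3, which loads acetylcholine, was lower at -1.49 and -2.09, from levels of about 1 CPM or less. After cbx, 1 of the 69 passed in the superficial layer, Atp6v0a1, a subunit of the vesicle proton pump, lower at -0.24 (adjusted p = 0.0363), and none passed in the deep layer or in the test of layer by treatment, as with all genes in the latter.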

How the data were processed

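Bulk poly-A RNA was measured in 14 libraries, the superficial and deep superior colliculus of 3 saline and 4 cbx pools, with 32004952 to 48776827 counts each. The authors deposited whole-number counts of reads per gene for each library, without normalization. The tools listed per the submitters' processing notes are STAR 2.7.9d, Subread 2.0.1 with featureCounts, SAMtools 1.14 and FastQC 0.11.9. The notes name GRCm39 and mm10 without roles. The strand setting is not given in the sources used here, nor is the annotation. Reads of a gene and its antisense or overlapping partner therefore cannot be separated. Symbols were matched by Ensembl ID (52083 of 55359 IDs, 98.7% of counts). Genes were kept by filterByExpr by group (20330) and fitted in edgeR 4.0.16 (R 4.3.3) with TMM factors, 4 group means over all 14 libraries, 10 residual degrees of freedom and robust quasi-likelihood tests. P-values were adjusted by Benjamini-Hochberg over all genes tested, with a threshold of 0.05, in 5 comparisons. CPM values are TMM-scaled. Standard errors are the log2 difference over the square root of F, and intervals cover 95%. Log2 CPM used a prior count of 2. DESeq2 1.42.0 and limma 3.58.1 (voom) served as alternatives, and the scripts were tested on simulated data.

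Values in every library are given for members past the threshold after cbx, the largest falls and rises among members past it in both layer comparisons, paralogs of members called after cbx, and, where none passed, the 3 smallest p-values. Of other lists, up to 3 genes with the smallest p-values are named. The members, lists and rules were chosen with earlier results of these data known. Genes named beyond this rule (Doc2b, the cortical genes and members close to the threshold) were chosen after their values were seen. Promoters were read for the 26 members with a listed start.

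Replicates are numbered as in the titles. Deviations from group means of layers with the same number and treatment correlated at 0.182 to 0.394 in 7 pools (15168 genes averaging 1 CPM or more), and 12 of 14 libraries were closest to their own pool, so the numbers pair the layers. Between treatments the correlations were -0.276 to -0.0167 in 6 pairs, so saline and cbx samples share only a number. Replicates differed by more than sampling noise in every group.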

Additional observations from a re-analysis of the deposited data

Results flagged for a closer look

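Stx1a, a plasma membrane SNARE, stood at 148 CPM in deep cbx replicate 3, while the other 3 libraries of that group lay between 169 and 172 CPM. Sv2a, a vesicle glycoprotein, stood at 355 CPM in superficial cbx replicate 4, while the other 3 lay between 391 and 398 CPM. Both are low values that lie apart from the rest of their group by more than Dixon's 95% limit. They are 2 of 68 groups of 4 libraries tested, and chance alone passes that limit in about 1 of 20 groups.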

How the results depend on the processing

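The layer differences of Syt2, Vamp1, Slc17a6, Syn2, Doc2b, Unc13c and Syt1 kept their direction and stayed past the threshold in all 17 alternatives in saline and all 19 in cbx pools. In the superficial layer after cbx, the count of presynaptic genes called lower (2) became 5 with DESeq2 and with genes of at least 1 CPM in 3 libraries, 1 with limma-voom, and 0 with the number as a replicate block, with only the groups compared, without saline pool 1 and cbx pool 4, and with pan-neuronal scaling; leaving out single libraries gave 0 to 2. The block by number joins saline and cbx pools that share only a number, so it reflects no known pairing. In the deep layer the count of 0 became 3 with DESeq2 and 1 with length and GC trends removed. Genes called higher superficially in saline pools (2) became 1 without saline pool 1 and cbx pool 4 or with those trends removed, and 1 to 2 when single libraries were left out. With pan-neuronal scaling, higher and lower counts became 8 and 6 in saline and 9 and 7 in cbx pools, and among genes called with TMM the sign turned for Cplx2 (0.0154 in saline and 0.157 in cbx pools), Syt11 (0.0422) and Bsn (0.0140) in cbx pools. Vamp2 after cbx in the superficial layer, near 0 throughout, turned to 0.0276 with that scaling, 0.0066 with the replicate block and between -0.101 and 0.0771 when single libraries were left out. The causes were not tested.

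With each pool as a replicate block, 3 genes were higher and 18 lower superficially in saline pools and 4 and 22 in cbx pools; the block lost none of the layer calls, and it added those named in the report. With the pool as a random block (consensus correlation 0.205) the counts were 3 and 15, and 4 and 20. With 3 or 4 pools a group, differences within the intervals given could not be resolved, and medians over the 33 genes after cbx moved between -0.18 and -0.09 in the superficial layer.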
